A study of Mus musculus with 6 samples.

Results

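Tyr-GTA fragments are small RNAs cut from the tRNAs that carry tyrosine, whose anticodon is written GTA after the gene. The table of tag counts held 33 of them among 591 tRNA fragment IDs (tDRs). They are the IDs whose parent tRNA names all begin Tyr-GTA once a leading "pre-" is removed, and 0 further IDs named Tyr-GTA beside another tRNA. By name, 9 had mature parents only, 8 had precursor ("pre-") parents only and 16 had both. The samples were brains of C57BL/6 mice, an inbred strain, with no treatment or allele named, aged 22 months (3 libraries) or 3 months (3 libraries). Whether a library is 1 animal or a pool is not stated, so p-values speak only of the scatter among these libraries. Whole brain was used, so fewer cells of a type and less RNA per cell cannot be told apart.

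Tyrosine tRNA genes of the mammalian nucleus carry a short intron just behind the anticodon. The TSEN endonuclease cuts it out and a ligase joins the exons. CCA is added at the 3′ end. In mice with an inactive form of the RNA kinase CLP1, which binds TSEN, fragments of tyrosine pre-tRNA build up and motor neurons are lost. Mitochondria carry a tyrosine tRNA of their own, mt-Ty, which has no intron.

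The 33 IDs name 18 Tyr-GTA parents, 11 mature and 7 precursor, and the parents fall into 2 unlike families. Sequences in the table are those of parents, and none is that of a fragment. Parents are shown because they decide which gene family a fragment can belong to, with the intron in capitals, 5′ to 3′, as deposited. Their chromosomes were not looked up, as the references used here do not list these genes.
Tyr-GTA-1-1: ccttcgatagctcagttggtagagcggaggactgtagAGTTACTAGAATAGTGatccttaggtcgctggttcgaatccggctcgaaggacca
Tyr-GTA-2-1: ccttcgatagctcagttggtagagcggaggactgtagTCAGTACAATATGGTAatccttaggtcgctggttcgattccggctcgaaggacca
pre-Tyr-GTA-2-1: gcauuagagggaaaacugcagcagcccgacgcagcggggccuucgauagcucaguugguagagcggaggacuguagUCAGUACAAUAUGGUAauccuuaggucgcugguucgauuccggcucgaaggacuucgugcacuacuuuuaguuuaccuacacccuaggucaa

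All 10 mature names of families 1 to 5 still held their intron, which ran from position 38 and was 13 to 20 nt long. So "mature" means here the gene with CCA added and not a spliced tRNA. The 6 matching precursors added a leader of 39 nt and a trailer of 40 nt. Without the intron these tRNAs were 73 nt long. Families 1, 2 and 5 were compared base by base. Counted from 1 at the 5′ end, with Tyr-GTA-2-1 as the first base named, all 5 genes of family 1 differed by T59A alone, and Tyr-GTA-5-1 by C2T, C11T and T59G. Near-identical copies such as these share reads, so many IDs name a group of genes. Of the 33, 7 are listed under 1 parent name, and 11 under Tyr-GTA-6-1 and its own precursor alone.

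**Figure D1:**
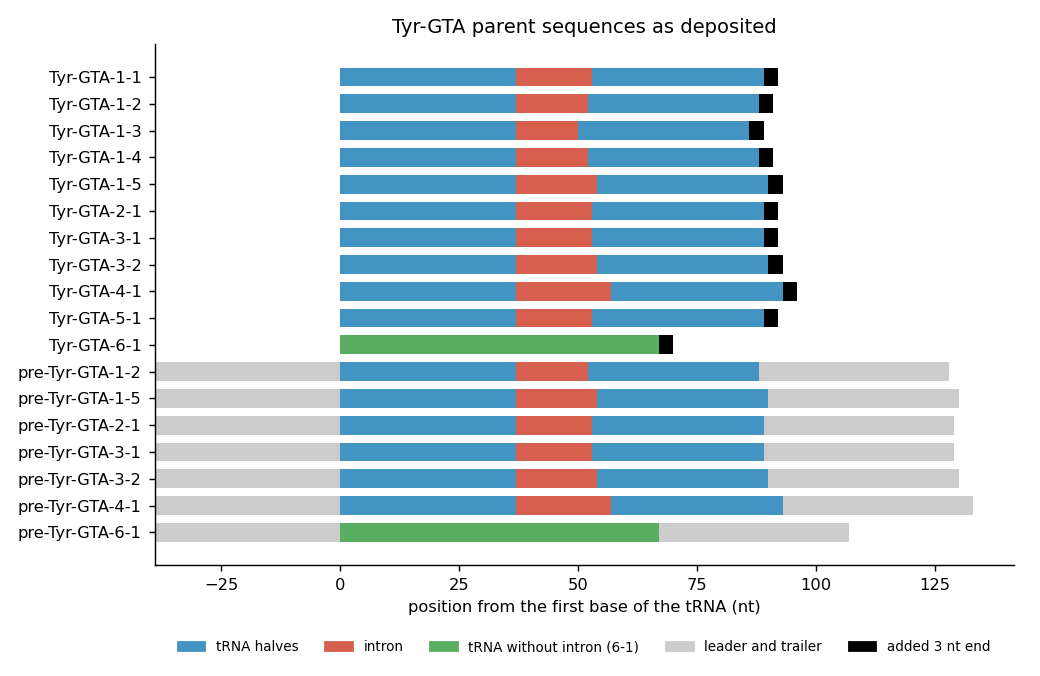
The 18 parent sequences named by Tyr-GTA fragments, drawn to scale from the first base of the tRNA (x axis, nt; each bar is 1 parent). The 10 mature names of families 1 to 5 hold an intron of 13 to 20 nt behind position 37, and Tyr-GTA-6-1 holds none.

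Tyr-GTA-6-1 was of another kind. Its 70 nt are the mitochondrial tRNA mt-Ty, base for base, with CCA added (capitals below). In GENCODE release M21 on GRCm38, mt-Ty is the minus strand of chrM:5260-5326, a mitochondrial tRNA gene of 67 nt.
Tyr-GTA-6-1: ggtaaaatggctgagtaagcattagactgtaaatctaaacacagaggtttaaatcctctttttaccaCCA
mt-Ty: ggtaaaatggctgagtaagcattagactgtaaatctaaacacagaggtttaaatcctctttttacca
The flanks of its precursor also matched mitochondrial neighbours. Of the 40 nt trailer, 38 in a row were found in mt-Tc, the cysteine tRNA, and of the 39 nt leader, 38 in a row on the opposite strand of mt-Co1, which encodes a subunit of cytochrome c oxidase. Fragments named Tyr-GTA-6-1 and fragments of mt-Ty therefore cannot be told apart here. Of 22 mitochondrial tRNAs in that annotation, mt-Ty alone was contained in a parent of the table. Of the 33 IDs, 11 belong to Tyr-GTA-6-1, each listed under both its mature and its precursor name, and 22 to the intron-containing genes. Below, "intron-containing" speaks of the parent genes. Whether a fragment itself holds intron bases is not given.

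Listed tags summed to between 71121 and 96130 per library at 22 months and between 44156 and 57425 at 3 months. Each library gives values under its own minimum, 8 to 17 tags or 177 to 204 CPM (tags scaled to the listed total), as 0, so a 0 is a level below that minimum. The library of 22 month replicate 3 stood apart. It held 20 IDs of the 591 at 5 times or more the level of every other library, 4 of them Tyr-GTA, and each of the other 5 libraries held 0 such IDs. Values without it are given beside the sums and shares that it moved most.

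Tyr-GTA fragments made up 2.01%, 1.70% and 3.85% of listed tags in 22 month replicates 1, 2 and 3, against 2.19%, 2.24% and 2.12% in 3 month replicates 1, 2 and 3. The 22 month libraries lay on either side of the 3 month ones, with means of 2.52% ± 1.16 at 22 months, against 2.19% ± 0.0595 at 3 months (SD, n = 3 each; exact two-sided permutation test, p = 1). The difference of 0.333 percentage points turned to -0.331 without 22 month replicate 3. The 2 families differed. Fragments of intron-containing Tyr-GTA genes took 1.40%, 1.11% and 0.804% at 22 months, against 1.64%, 1.80% and 1.75% at 3 months, and the ages did not overlap. Tyr-GTA-6-1 fragments took 0.610%, 0.586% and 3.04% at 22 months, against 0.554%, 0.436% and 0.376% at 3 months, and did not overlap either. Of single IDs tested over all tRNAs, 19.4% lay higher and 20.0% lower at 22 months with no overlap (scaling described below). Shares add to a fixed total, so a rise of some IDs lowers the share of the others. The exact two-sided permutation test gave p = 0.1 for each family, the smallest that 3 against 3 libraries allow. A threshold of 0.05 is thus out of reach for any share. This split by family was made after the values were seen.

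**Figure D2:**
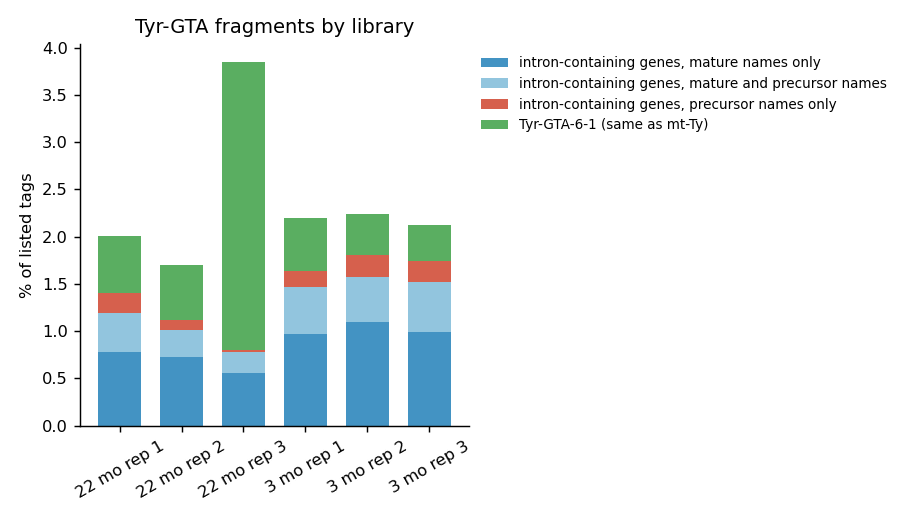
Share of listed tags (y axis, %) held by Tyr-GTA fragments in each library, stacked by gene family and kind of parent name. Fragments of intron-containing genes sum to between 0.804% and 1.40% at 22 months and between 1.64% and 1.80% at 3 months. Tyr-GTA-6-1 reaches 3.04% in 22 month replicate 3.

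Of the 3.04% that Tyr-GTA-6-1 took in 22 month replicate 3, 4 IDs held 2.71%. They are the 4 singled out above by their level in that library, so their values are a description. AS-tDR-012230 had 0, 33 and 845 tags in 22 month replicates 1, 2 and 3, against 0, 0 and 0 at 3 months. AS-tDR-012229 had 0, 28 and 826 tags at 22 months, against 0, 0 and 0 at 3 months. AS-tDR-011023 had 0, 21 and 321 at 22 months, against 0, 0 and 0 at 3 months. In 22 month replicate 1 these 3 were listed at 0, as in every library at 3 months. AS-tDR-015058 had 302 tags in 22 month replicate 3 and 0 in the other 5 libraries. In 22 month replicate 3 the 4 IDs lay 17.3 to 33.4 times above the highest other library or its listing minimum. Together they held 0%, 0.0853% and 2.71% of listed tags at 22 months, against 0% in each library at 3 months. None of the 4 passed the filter on low counts, so none was tested.

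The remaining 7 IDs of Tyr-GTA-6-1 took 0.610%, 0.500% and 0.337% of listed tags at 22 months, against 0.554%, 0.436% and 0.376% at 3 months. The ages overlapped. As the 4 IDs were set aside for their level in 1 library, no test is given. The most abundant of them, AS-tDR-011501, had 189, 232 and 173 tags at 22 months, against 114, 82 and 64 at 3 months. Scaled by TMM, which sets libraries on a common level from the bulk of IDs, it stood at 2598 ± 221 CPM at 22 months and 1646 ± 273 CPM at 3 months (SD, n = 3 each). It was higher in 3 of 3 libraries, by 0.66 on the log2 scale (SE 0.20), and did not pass (edgeR quasi-likelihood, adjusted p = 0.0861 by Benjamini-Hochberg). It passed with DESeq2 (adjusted p = 0.0189), which called 22.1% of IDs tested, 13.4% as higher at 22 months.

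AS-tDR-010633 had 84, 92 and 35 tags at 22 months, against 82, 33 and 29 at 3 months. AS-tDR-010799 had 71, 70 and 39 tags at 22 months, against 60, 40 and 34 at 3 months. AS-tDR-010816 had 50, 62 and 39 tags at 22 months, against 36, 27 and 18 at 3 months. The ages overlapped in CPM for these 3, with log2 differences of 0.06, -0.11 and 0.36 and SE of 0.45, 0.28 and 0.29 (edgeR, adjusted p = 0.951, 0.842 and 0.502). The difference of AS-tDR-010633 was -0.14 when scaled by library size only and between -0.15 and 0.47 with 1 library left out, and that of AS-tDR-010799 was 0.16 without 22 month replicate 3. In 22 month replicate 3, then, these 3 had fewer tags than in replicates 1 and 2 of that age, while AS-tDR-012230 and AS-tDR-012229 exceeded every other Tyr-GTA ID there. The last 3 IDs were each listed in 2 libraries only. AS-tDR-012295 had 15 and 21 tags in 3 month replicates 2 and 3, AS-tDR-015056 had 24 and 25 in 22 month replicates 1 and 2, and AS-tDR-012296 had 16 in 22 month replicate 1 and 26 in 3 month replicate 1.

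**Figure D3:**
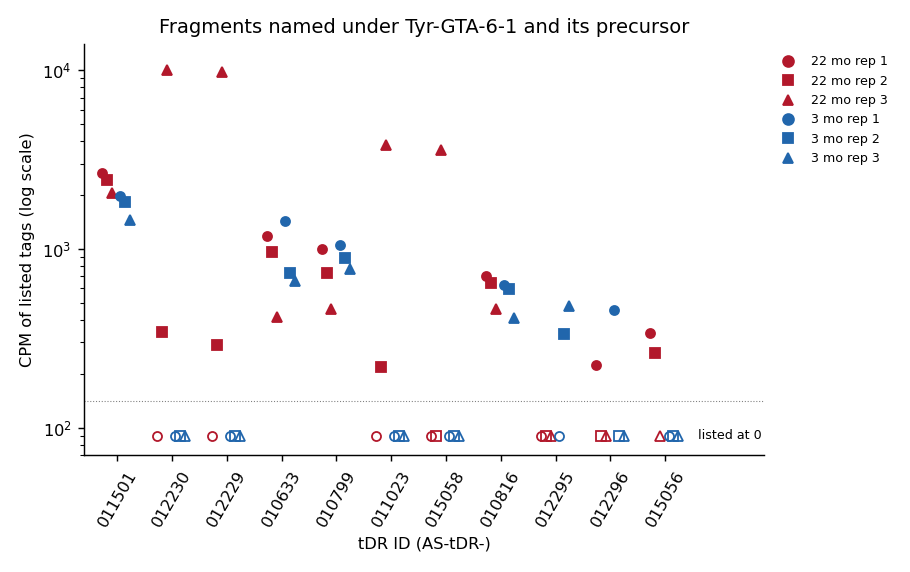
Level of the 11 Tyr-GTA-6-1 IDs in each library, in CPM of listed tags on a log axis (22 months red, 3 months blue, open symbols under the dotted line for values listed at 0). AS-tDR-012230, AS-tDR-012229, AS-tDR-011023 and AS-tDR-015058 stand high in 22 month replicate 3 alone, and AS-tDR-011501 is the most abundant ID in each of the other 5 libraries.

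Over all IDs, 439 passed the filter on low counts and 29 of them, 6.61%, passed the edgeR test at an adjusted p under 0.05, 4.78% higher and 1.82% lower at 22 months. Of the 33 Tyr-GTA IDs, 22 were tested and 0 passed. At an unadjusted p under 0.05 there were 3, 1 higher and 2 lower, against 25.5% of all IDs tested, 15.7% higher and 9.79% lower. DESeq2 called 3, 1 higher and 2 lower. One of the 2 lower was in each case AS-tDR-011536, which was listed at 0 in all 22 month libraries. Log2 differences were above 0 for 5 and below 0 for 17, beside 187 above and 252 below over all 439. Their median was -0.40, beside -0.16 over all 439. Of the 22, 9 were at 0 in 1 or more libraries, 5 of them in 22 month replicate 3 alone. Over the 13 Tyr-GTA IDs above 0 in all 6 libraries it was -0.11, beside -0.04 over 290 such IDs. Of the 22, 2 lay higher at 22 months with no overlap in TMM-scaled CPM, against 19.4% of all tested. Another 4 lay lower with no overlap, against 20.0%.

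Among the intron-containing genes, 9 IDs had mature names only. AS-tDR-000118, listed under Tyr-GTA-2-1, 3-1 and 3-2, was the most abundant Tyr-GTA ID over the 6 libraries. It had 221, 239 and 218 tags at 22 months, against 248, 190 and 167 at 3 months. In TMM-scaled CPM it was close within each age and did not overlap, with 2979 ± 52.8 at 22 months, against 3858 ± 342 at 3 months (SD, n = 3 each). Scaled to the listed total it spread more at 22 months, at 3107, 2486 and 2570.5 CPM, and the ages still did not overlap. The log2 difference was -0.37 (SE 0.16; edgeR, adjusted p = 0.210), and did not pass. AS-tDR-006922, listed under all 10 mature names, had 190, 273 and 159 tags at 22 months, against 160, 150 and 118 at 3 months. In TMM-scaled CPM it overlapped between the ages, at 2705 ± 579 in 22 month and 2759 ± 440 in 3 month libraries (SD, n = 3 each). The log2 difference was -0.03 (SE 0.23). Left-out libraries moved that difference between -0.21 and 0.19.

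AS-tDR-006027, listed under the 5 genes of family 1, had 57, 76 and 45 tags at 22 months, against 66, 46 and 39 at 3 months (log2 difference -0.30, SE 0.24; edgeR, adjusted p = 0.478). AS-tDR-006286, again under all 10, had 43, 87 and 53 tags at 22 months, against 40, 35 and 23 at 3 months, with a log2 difference of 0.34 (SE 0.32; adjusted p = 0.560). Both overlapped between the ages in TMM-scaled CPM. AS-tDR-006921 had 28, 23 and 0 tags at 22 months, against 19, 11 and 12 at 3 months, and was listed at 0 in 22 month replicate 3 only. Its log2 difference of -0.26 (SE 1.32) became 0.37 without that library. AS-tDR-009351, under Tyr-GTA-2-1 alone, had 38 and 42 tags in 3 month replicates 2 and 3 and 0 in the other 4 libraries. AS-tDR-008946, under 8 mature names, had 24 and 26 tags in the same pair of libraries. AS-tDR-008218 had 24 and 11 tags in 3 month replicates 1 and 3, and AS-tDR-015070, the one ID of Tyr-GTA-5-1 alone, 13 tags in 22 month replicate 1. These 4 were not tested.

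The 5 IDs with both kinds of name all had log2 differences below 0, and none passed. Over all tRNAs, 145 of 258 tested IDs with both kinds of name were below 0. AS-tDR-001085, under Tyr-GTA-3-1, 3-2 and 4-1 and their precursors, had 57, 69 and 50 tags at 22 months, against 83, 55 and 63 at 3 months. That is 770 ± 74.7 CPM at 22 months and 1278 ± 70.8 CPM at 3 months (SD, n = 3 each), with no overlap. The log2 difference was -0.73 (SE 0.18), lower in 3 of 3 libraries, and did not pass (edgeR, adjusted p = 0.0582). It passed with RLE scaling (adjusted p = 0.0473, where 10.0% of IDs tested were called, 3.42% as lower). It passed among IDs above 0 in all 6 libraries (adjusted p = 0.0238, where 22.4% were called, 9.31% as lower). It also passed with DESeq2 (adjusted p = 0.00950, where 8.66% were called as lower). In other edgeR fits it did not pass, with library size only (adjusted p = 0.0850), no filter (0.117) or a replicate block (0.232). Nor did it pass with zeros filled at 1 tag under each library's minimum (edgeR, adjusted p = 0.103) or with any 1 library left out. AS-tDR-011094 and AS-tDR-000004 share those 6 parents. AS-tDR-011094 had 79, 59 and 43 tags at 22 months, against 65, 53 and 53 at 3 months, and AS-tDR-000004 had 65, 47 and 47 at 22 months, against 49, 43 and 53 at 3 months. Each overlapped between the ages in TMM-scaled CPM, with log2 differences of -0.46 (SE 0.26) and -0.42 (SE 0.26).

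AS-tDR-008527 is listed under families 1 and 2, mature and precursor. It had 64, 68 and 46 tags at 22 months, against 71, 45 and 52 at 3 months. In TMM-scaled CPM this is 778 ± 121 at 22 months, against 1066 ± 79.1 at 3 months (SD, n = 3 each), with no overlap. Its log2 difference was -0.45 (SE 0.21; edgeR, adjusted p = 0.229). AS-tDR-008208 had 29, 32 and 0 tags at 22 months, against 15, 18 and 12 at 3 months, and its log2 difference of -0.17 (SE 1.32) became 0.48 without 22 month replicate 3.

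**Figure D4:**
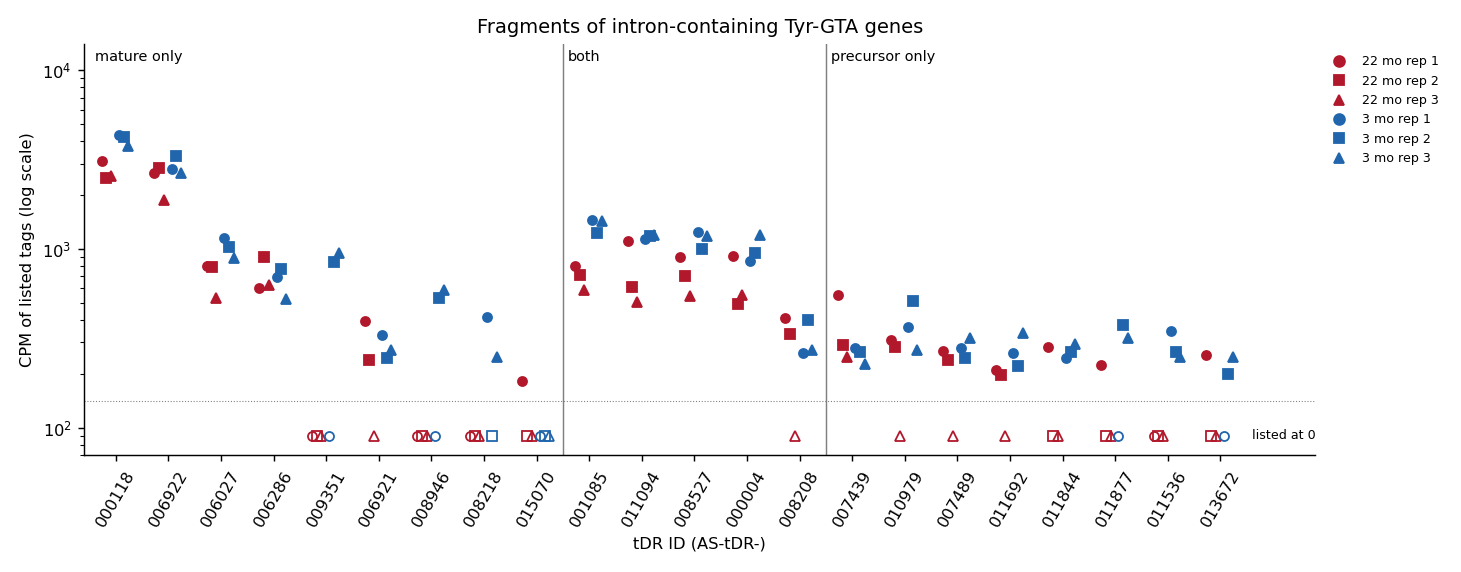
Level of the 22 IDs of intron-containing Tyr-GTA genes in each library, in CPM of listed tags on a log axis, grouped by kind of parent name (22 months red, 3 months blue, open symbols under the dotted line for values listed at 0). The precursor IDs lie near the listing minimum, and 22 month replicate 3 is listed above 0 for 1 of those 8.

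The 8 precursor-only IDs were all scarce, none above 3 times the listing minimum of its library. AS-tDR-007439, under pre-Tyr-GTA-2-1 alone, had 39, 28 and 21 tags at 22 months, against 16, 12 and 10 at 3 months. It was the one precursor ID listed in all 6 libraries and the one with a higher level at 22 months. Its TMM-scaled CPM was 387 ± 123 at 22 months, against 242 ± 29.1 at 3 months (SD, n = 3 each; log2 difference 0.67, SE 0.47; edgeR, adjusted p = 0.435). Scaled to the listed total, its ages overlapped. AS-tDR-011536, also of pre-Tyr-GTA-2-1, ran the other way, with 0, 0 and 0 tags at 22 months, against 20, 12 and 11 at 3 months. Set against the mean listing minimum at 22 months it was at least 1.54-fold lower there. It passed the filter only through its 3 month counts, so its adjusted p-values of 0.0584 (edgeR) and 5.18e-05 (DESeq2) support nothing. With each 0 filled at 1 tag under the minimum of its library the log2 difference was -0.54 (SE 0.20; edgeR, adjusted p = 0.220).

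AS-tDR-010979 had 22, 27 and 0 tags at 22 months, against 21, 23 and 12 at 3 months. AS-tDR-007489 had 19, 23 and 0 at 22 months, against 16, 11 and 14 at 3 months, and is like AS-tDR-010979 of pre-Tyr-GTA-2-1 alone. AS-tDR-011692, under the precursors 1-2, 1-5 and 2-1, had 15, 19 and 0 at 22 months, against 15, 10 and 15 at 3 months. In these 3 the only zero was 22 month replicate 3. Their log2 differences were -0.78 for AS-tDR-010979, -0.54 for AS-tDR-007489 and -0.81 for AS-tDR-011692, and without that library -0.14, 0.10 and -0.17 in the same order. AS-tDR-011844 had 20, 0 and 0 tags at 22 months, against 14, 12 and 13 at 3 months. AS-tDR-011877, under all 6 intron-containing precursors, had 16, 0 and 0 at 22 months, against 0, 17 and 14 at 3 months, and AS-tDR-013672, under the precursors 3-1, 3-2 and 4-1, 18, 0 and 0 at 22 months, against 0, 9 and 11 at 3 months. None of these 6 passed (edgeR).

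Counted over the 8, 22 month replicates 1, 2 and 3 listed 7, 4 and 1, against 6, 8 and 8 in 3 month replicates 1, 2 and 3. Precursor-only IDs of other tRNAs, 80 in all, were listed at 56, 48 and 47 in the 22 month libraries, against 58, 63 and 57 in the 3 month ones. In 22 month replicate 3 this is 12.5% of the Tyr-GTA precursor IDs and 58.8% of the others. The others were not matched for level, and none of the 8 lay above 3 times the listing minimum. As a share of Tyr-GTA tags, precursor-only IDs held 10.4%, 5.94% and 0.644% at 22 months, against 8.10%, 10.5% and 10.7% at 3 months (exact two-sided permutation test, p = 0.2). With Tyr-GTA-6-1 left out of the total the shares were 14.97%, 9.07% and 3.08% at 22 months, against 10.8%, 13.0% and 13.0% at 3 months (exact permutation test, p = 0.6). The ages overlapped in both counts, since 22 month replicate 1 lay within or above the 3 month range. The first difference, -4.08 percentage points, was -1.57 without 22 month replicate 3. It turned positive, to 1.02, over IDs above 0 in all 6 libraries, where AS-tDR-007439 is the one precursor ID. Over all tRNAs, 88 precursor-only IDs held 5.92% ± 1.45 of tags in the 22 month libraries, against 8.57% ± 0.488 in the 3 month ones (SD, n = 3 each; p = 0.1 by exact permutation).

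Summed by kind of name and fitted with the sums of all other anticodons, Tyr-GTA gave 3 values and 0 calls, where 8.64% of 81 sums passed. The mature-only sum was 7314 ± 1564 CPM at 22 months and 9670 ± 883 CPM at 3 months (SD, n = 3 each; log2 difference -0.40, SE 0.22; edgeR, adjusted p = 0.237). The precursor-only sum was 2092, 1197 and 247 CPM at 22 months, against 1717, 2288 and 2048 CPM at 3 months (log2 difference -0.78, SE 0.69; adjusted p = 0.483). That difference was -0.37 without 22 month replicate 3 and -1.48 without 22 month replicate 1. The sum of IDs with both kinds of name had a log2 difference of 0.97 (SE 0.49; adjusted p = 0.219), which was 0.12 without 22 month replicate 3. With Tyr-GTA-6-1 set apart, the intron-containing part of it stood at -0.44 (SE 0.18; adjusted p = 0.115) and Tyr-GTA-6-1 at 2.06 (SE 0.79; adjusted p = 0.1005, where 18.3% of 82 sums passed). The Tyr-GTA-6-1 sum was 0.58 without 22 month replicate 3 and 0.33 (SE 0.23) over IDs above 0 in all 6 libraries. All intron-containing IDs in 1 sum stood at 11370 ± 1757 CPM at 22 months and 16664 ± 2512 CPM at 3 months (SD, n = 3 each). The log2 difference was -0.55 (SE 0.22; adjusted p = 0.142, where 16.2% of 80 sums passed), and between -0.67 and -0.34 with 1 library left out. These 3 sums passed with DESeq2, which called 36.6% of the 82 sums and 40.0% of the 80. The split was made after the values were seen. In 22 month replicate 3, 4 IDs listed at 0 in every 3 month library held 2294 of the 2580 Tyr-GTA-6-1 tags. These passes are therefore not taken as support. CPM of sums are scaled to the tags of each set of sums and are not on the scale of single IDs. The log2 differences shift with that scaling too. The same mature-only sum, at -0.40 above, stood at -0.28 in the set with Tyr-GTA-6-1 apart. Small differences between sums of different sets are therefore not read.

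**Figure D5:**
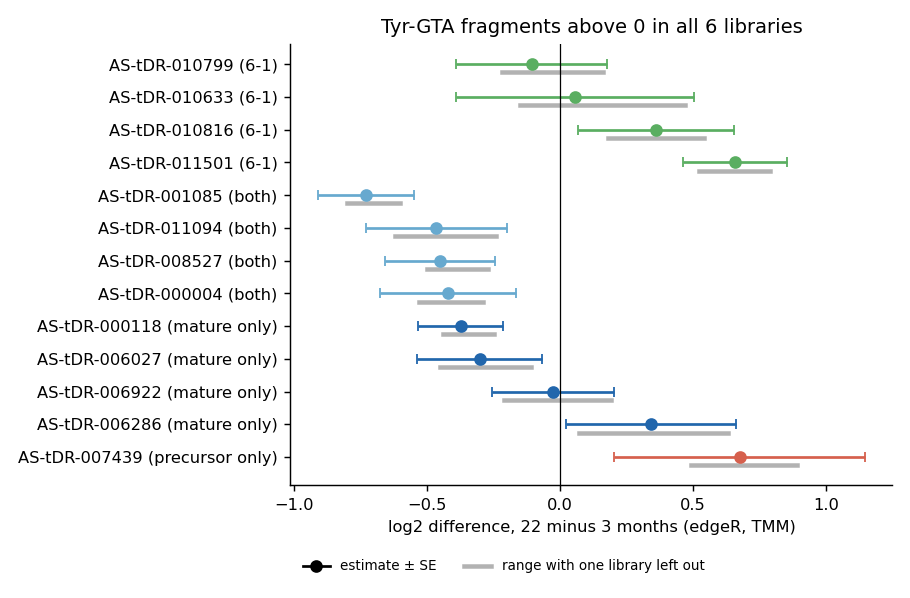
Log2 difference, 22 minus 3 months, of the 13 Tyr-GTA IDs above 0 in all 6 libraries (x axis; points with SE from edgeR, grey bars for the range with 1 library left out). The 4 IDs of intron-containing genes with both kinds of name lie between -0.73 and -0.42, and AS-tDR-011501 of Tyr-GTA-6-1 at 0.66.

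Parent names also limit where in the tRNA an ID can lie, provided that each list holds all exact matches and no others. Exact windows of 15 to 50 nt were sought that occur in every parent of an ID and in no other Tyr-GTA parent, once with the intron kept in mature names, as deposited, and once with it removed. AS-tDR-008527 could lie only within positions 1 to 37, the 5′ part in front of the intron, under either reading. AS-tDR-001085, AS-tDR-011094 and AS-tDR-000004 were held to positions 1 to 37 with the intron removed, and could reach position 74 with it kept. With the intron kept, AS-tDR-000118, AS-tDR-006922, AS-tDR-006027 and AS-tDR-006286 all had to reach into the added CCA of the 92 nt parents, from position 75 or 78 to position 90 or 91. With it removed, AS-tDR-000118 and AS-tDR-006027 had to hold position 59 of 76. AS-tDR-006922 and AS-tDR-006286 then had no base common to all windows, which lay within positions 17 to 76. With the intron removed, none of the IDs from AS-tDR-000118 to AS-tDR-006286 had to reach the CCA. The set from AS-tDR-008527 to AS-tDR-000004 had log2 differences of -0.73 to -0.42. The set from AS-tDR-000118 to AS-tDR-006286 had log2 differences of -0.37 to 0.34. The difference between these 2 sets was not tested. AS-tDR-013672, with the intron kept, had to hold positions 39 to 52 of pre-Tyr-GTA-3-1, the last base of the leader and the start of the tRNA. For 6 IDs, 3 of them precursor-only, no window existed under either reading, so those parent lists do not follow from exact matches of 15 to 50 nt to the deposited sequences. The placements of the other IDs therefore hold only if their lists do follow from exact matches, which was not tested. All 11 IDs of Tyr-GTA-6-1 could lie anywhere in the tRNA.

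Leu-CAA, Ile-TAT and Arg-TCT were taken by name as other mouse tRNAs with introns, and their parent sequences were not checked for an intron. Of 16 Leu-CAA IDs tested, 14 had a log2 difference above 0, against 187 of all 439 IDs tested. Of the 16, 5 rose (edgeR, adjusted p under 0.05, which 4.78% of all IDs tested passed as higher). The median over the 16 was 1.16, beside -0.46 over 18 tested IDs of intron-containing Tyr-GTA genes. Of those 18, 2 were above 0 and 0 passed. The 3 precursor-only IDs of Leu-CAA had a median of 0.76, beside -0.80 over the 8 of Tyr-GTA and -0.71 over 62 of all tRNAs. Of those 8, 1 was above 0 in all 6 libraries, so -0.80 depends on how zeros are treated. With each 0 filled at 1 tag under the minimum of its library, the 8 lay between -0.54 and 0.64. Of the 3 of Leu-CAA, AS-tDR-000805 was at 0 in 3 month replicate 3. The ID of Ile-TAT, AS-tDR-012735, had 29, 26 and 30 tags at 22 months, against 0, 0 and 0 at 3 months, where 0 is a level under the listing minimum. It passed the filter only through the 22 month libraries, so no test is given. The ID of Arg-TCT, AS-tDR-015095, had 19, 0 and 0 tags at 22 months, against 25, 8 and 0 at 3 months (log2 difference -1.16, SE 2.21), and did not pass. With library size only as the scaling, 0 IDs of any tRNA passed. The difference between these tRNAs was not tested.

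Among sums by anticodon and kind of name, likeness to Tyr-GTA was measured by Pearson's r of log2 CPM over the 6 libraries, which share their scaling. Most like the mature-only sum were Val-TAC precursor-only (r = 0.983), Val-TAC both (0.975) and Thr-CGT precursor-only (0.972). The precursor-only sum was most like Gln-TTG both (r = 0.979), Met-CAT mature-only (0.975) and Thr-CGT both (0.973). For Tyr-GTA both, which 22 month replicate 3 dominates, they were His-GTG (r = 0.952), Val-CAC (0.89) and Gly-GCC (0.877), each with both kinds of name. The ranks depend on the scaling of each set of sums. With Tyr-GTA-6-1 summed apart, the mature-only sum was most like Thr-CGT precursor-only (r = 0.938), Val-TAC both (0.892) and Met-CAT both (0.88). The precursor-only sum was then most like Thr-CGT both (r = 0.965), Thr-TGT both (0.962) and Gln-TTG both (0.96). All are descriptions over 6 libraries and 80 or 81 other sums.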

How the data were processed

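Total RNA was extracted with Trizol and read as single reads of 50 nt, per the labels' protocols. FastQC, cutadapt and Novoalign, without versions, and the build mm10 are named in the submitters' processing notes. The counting program and the listing minimum are not stated there. The deposited table holds a tag count per tDR ID, per the file headers, in whole numbers with unequal totals, taken here as raw. Its 3257 lines repeat the counts of 591 IDs under each parent, so each ID was taken once. The columns named Age and WT were read as 22 and 3 months, and their numbers as replicates. Chi-square per degree of freedom between replicates was 6.6 to 59.65, beyond sampling noise.

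All IDs were fitted together with edgeR 4.0.16 under R 4.3.3 (TMM scaling, filterByExpr at a minimum count of 10, quasi-likelihood test, no replicate term), which kept 439 IDs, and p-values were adjusted by Benjamini-Hochberg over all IDs tested. The SE was derived from the log2 difference and its F statistic. Sums per anticodon and kind of parent were fitted likewise. DESeq2 1.42.0 was an alternative. The fit was tested on simulated data, at dispersions of 0.05 and 0.1, under the common dispersion of 0.384 estimated from these libraries. Shares were compared by exact permutation with scipy 1.17.1. pandas 2.3.3 and matplotlib 3.10.9 were used for tables and plots. Alternatives were other scalings, no filter, filled zeros, a replicate block and leaving out each library. Mitochondrial tRNAs were taken from GENCODE M21. A fold against an age listed at 0 is a bound, taken against the mean listing minimum of that age. Every Tyr-GTA ID is named with its tags. The members, the lists and the tests were chosen with earlier results of these data known, and the split into Tyr-GTA-6-1 and intron-containing genes was added after the values were seen. The sequences of some parents are not reported here.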

Additional observations from a re-analysis of the deposited data

How the results depend on the processing

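No Tyr-GTA ID passed in the edgeR fits with library size only, without a filter, with zeros filled at 1 under each library's minimum, with a replicate block or with any 1 library left out, against 1 with RLE scaling, 1 among IDs above 0 in all 6 libraries and 3 with DESeq2. Over all IDs the 29 calls became 97 with DESeq2, 44 with RLE scaling, 65 among IDs above 0 in all 6 libraries, 50 with zeros filled at 1 under each library's minimum, 0 with library size only, 0 with no filter, 0 with a replicate block, and 0 to 14 with 1 library left out. With library size only the median log2 difference of all IDs moved from -0.16 to -0.34 and that of Tyr-GTA from -0.40 to -0.59. Same-numbered libraries did not vary together (r of deviations -0.459, 0.037 and -0.341), so the numbers were not read as pairs. The difference in the Tyr-GTA share of listed tags, 0.333 points (the same with a replicate block), turned to -0.366 among IDs above 0 in all 6 libraries and to -0.625 without Tyr-GTA-6-1, and lay between -0.331 and 0.742 with 1 library left out. The difference in precursor share, -4.08 points (the same with a replicate block), turned to 1.02 among IDs above 0 in all 6 libraries and to 14.6 with IDs of both kinds counted as precursor, and lay between -6.46 and -1.57 with 1 library left out, as the precursor-only sum did between -1.48 and -0.37. Among IDs above 0 in all 6 libraries the sum of both kinds turned to -0.07 and the precursor sum to 0.65, and the Tyr-GTA-6-1 sum was 0.33. The precursor sum was -0.15 with zeros filled at 1 under each library's minimum. With DESeq2 the sums of Tyr-GTA-6-1 (2.14), of the intron-containing both-kind IDs (-0.40) and of all intron-containing IDs (-0.33) passed, where it called 30 of 82 and 32 of 80 sums. That split was made after the values were seen, so the passes are not taken as support. The Tyr-GTA-6-1 sum lay between 0.58 and 2.38 with 1 library left out, past the threshold without 22 month replicate 1. Of the single IDs, AS-tDR-006921 (0.11), AS-tDR-008208 (0.17) and AS-tDR-013672 (0.15) turned positive with zeros filled at 1 under each library's minimum. AS-tDR-010633 turned to -0.14 with library size only and -0.0014 among IDs above 0 in all 6 libraries. With 1 library left out AS-tDR-006921 lay between -0.79 and 0.37, AS-tDR-006922 between -0.21 and 0.19, AS-tDR-007489 between -1.02 and 0.10, AS-tDR-008208 between -0.58 and 0.48, AS-tDR-010633 between -0.15 and 0.47 and AS-tDR-010799 between -0.22 and 0.16. The cause was not tested. Listed counts of 9 to 39 tags limit the precursor IDs.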
